A study of Caenorhabditis elegans with 4 samples.

Results

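DVE-1 binding sites on chromosome III of Caenorhabditis elegans were taken as every peak of the authors' combined list that carries that chromosome name, 703 of 3702 peaks (19.0%). The sites come from chromatin immunoprecipitation and sequencing (ChIP-seq) of L4 hermaphrodites grown at 20 °C. All worms were of strain OP398, with the genotype unc-119(ed3) III and the transgene wgIs398, which carries dve-1 joined to a TY1, EGFP and FLAG tag together with a rescuing copy of unc-119. Both groups, 2 ChIP libraries made with antibodies against GFP and 2 input libraries, came from this strain, and the input libraries were not analysed here, so no background level is given. The transgene was brought in by bombardment and, per the labels, is expressed where and when dve-1 itself is, and all libraries rest on this 1 transgenic strain. The lysates were of whole worms, so a site bound in a few cells and a site bound weakly in many cells cannot be told apart.

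DVE-1 is a DNA-binding protein of the homeodomain type. It acts in the mitochondrial unfolded protein response, in which stressed mitochondria signal to the nucleus and chaperone and protease genes are switched on. Chromosome III is an autosome. Worm autosomes have a gene-rich centre with little recombination and 2 arms with more repeats and more recombination, and chromosome III is also known as the home of the worm's Hox genes, which set identity along the body axis. The unc-119 mutation of the strain lies on it too, per the genotype.

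The list of ChIP replicate 1 held 340 peaks on chromosome III and that of ChIP replicate 2 held 449. The 703 combined peaks covered 0.517 Mb, or 3.75% of the 13.8 Mb from the start of the chromosome to the end of its last peak. Each peak has a start, an end and the authors' q-value, with no read count or height, so the depth behind each site is unknown. The q-value ranks peaks within a list and is not compared between lists. Positions are in WormBase WS180, and since no sequence or gene map of that build was used, the sites are given by position, without genes or bases.

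Sites lay along the whole of chromosome III, from end to end. The first combined peak, from 14698 to 15631 (934 bp, q = 1.50e-20), and the last, from 13766097 to 13767365 (1269 bp, q = 1.74e-16), were each held by both replicates. In windows of 1 Mb numbered from the left end, the combined counts were 29, 41, 38, 60, 48, 73, 57, 59, 63, 58, 49, 40 and 47 peaks, and the last, partial window held 41. The counts were thus lowest in window 1 and highest in window 6, and windows 6 to 10 all held at least 57. Replicate 1 had its highest count in window 6 as well, with 41 peaks, and its lowest count, 15, in windows 1, 3 and 12. Replicate 2 had its highest count, 47, in window 9 and its lowest, 17, in window 3. Over the 13 full windows the counts of the replicates moved together, with a Pearson r of 0.876 and a Spearman rho of 0.957, and over 137 windows of 100 kb r was 0.868 and rho 0.878. These windows share the 2 libraries and the same chromosome, so the correlations are a description.

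**Figure D1:**
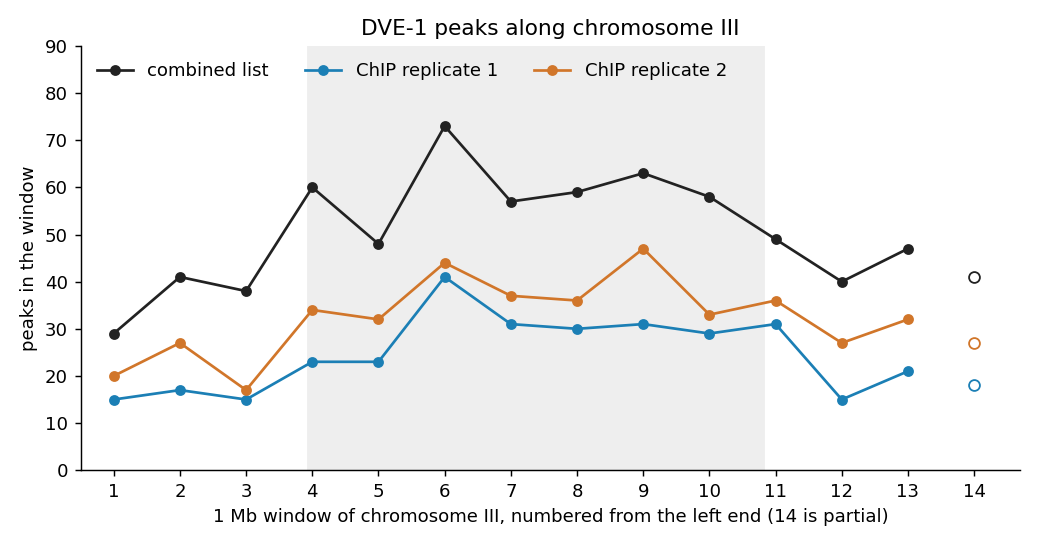
Number of peaks in each 1 Mb window of chromosome III, counted by peak midpoint, for the combined list and the 2 ChIP replicate lists; open symbols mark the partial window at the right end and the grey area marks the central 50% of the length. The combined counts run from 29 in window 1 to 73 in window 6.

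The centre was denser than the ends, and the right end was denser than the left. The central 50% of the length held 407 peaks (57.9%, exact 95% interval 54.1 to 61.6), the right 25% held 169 (24.0%) and the left 25% held 127 (18.1%). Per Mb this came to 59.1 peaks in the centre, 49.1 at the right end and 36.9 at the left end. The centre had 1.38 times the density of the ends (interval 1.18 to 1.60; exact two-sided binomial p = 3.23e-05), and the left end had 0.751 times the density of the right (interval 0.592 to 0.952; exact p = 0.0170). Both differences kept their direction in the replicate lists, where the ratio of centre to ends was 1.56 in replicate 1 and 1.36 in replicate 2, and that of left to right was 0.684 and 0.638. With the outer 33.3% at each side in place of 25%, the ratio of left to right was 0.887 and no longer past the threshold (exact p = 0.231). The binomial test takes no account of neighbouring peaks that occur together. In the combined list the left end was also sparser than the right on II (16.5 against 43.0 peaks per Mb) and on X (18.6 against 28.6). On IV it was denser (35.7 against 24.3), and on V the ends were nearly equal (23.5 against 23.7). The ratio of left to right was not tested between chromosomes.

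Sites at the left end also had the lowest median width, the weakest median q-value and the widest median spacing of the 3 parts. The median width was 454 bp there, against 533 bp in the centre and 485 bp at the right end. The median q-value was 6.40e-07 at the left end, 2.94e-08 in the centre and 1.09e-08 at the right end. The median distance to the next peak was 15516 bp at the left end, 7241 bp in the centre and 6625 bp at the right end. The share of peaks held by both replicates was 36.2% at the left end (exact interval 27.9 to 45.2), 42.5% in the centre (37.7 to 47.5) and 40.2% at the right end (32.8 to 48.0), with intervals that overlap. None of these 4 features was tested between the parts of the chromosome. On II, IV and X the left end likewise had the lowest median width, the weakest median q-value and the widest median spacing. Its median widths there were 499, 487.5 and 605 bp, and its median spacings 30701, 15713.5 and 30437 bp. On V the median q-value was weakest at the left end (2.45e-07), but the right end was narrowest (443.5 bp) and most widely spaced (23510 bp).

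At the scale of 100 kb most windows held a few peaks, and some were crowded or empty. A window of 100 kb held a median of 4 combined peaks, with quartiles of 3 and 7. The fullest, from 3800001 to 3900000, held 15 peaks, 5 of them in both replicates. Windows from 5800001 to 5900000 and from 7100001 to 7200000 held 14 each, that from 7300001 to 7400000 held 13, and that from 1200001 to 1300000 held 12. The last of these lies in the sparser left end, in a 1 Mb window of 41 peaks that also holds a 100 kb window with 11, from 1600001 to 1700000. Of 137 full windows, 17 held 10 or more peaks (12.4%) and 6 held none (4.38%). On chromosomes II, IV, V and X, 1.14% to 4.31% of such windows held 10 or more and 7.89% to 12.5% held none. In the combined list chromosome III thus had more crowded and fewer empty windows than each of these, a difference that was not tested. Both shares depend on the number of peaks per Mb, so they are not separate from the density of III. The replicate lists hold fewer peaks, and windows with 10 or more made up 0% and 0.730% on III, against at most 0.575% and 0.658% on the others. Empty windows were again fewer on III, at 16.1% against 25.3% to 49.4% in replicate 1 and 11.7% against 17.8% to 37.5% in replicate 2.

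**Figure D2:**
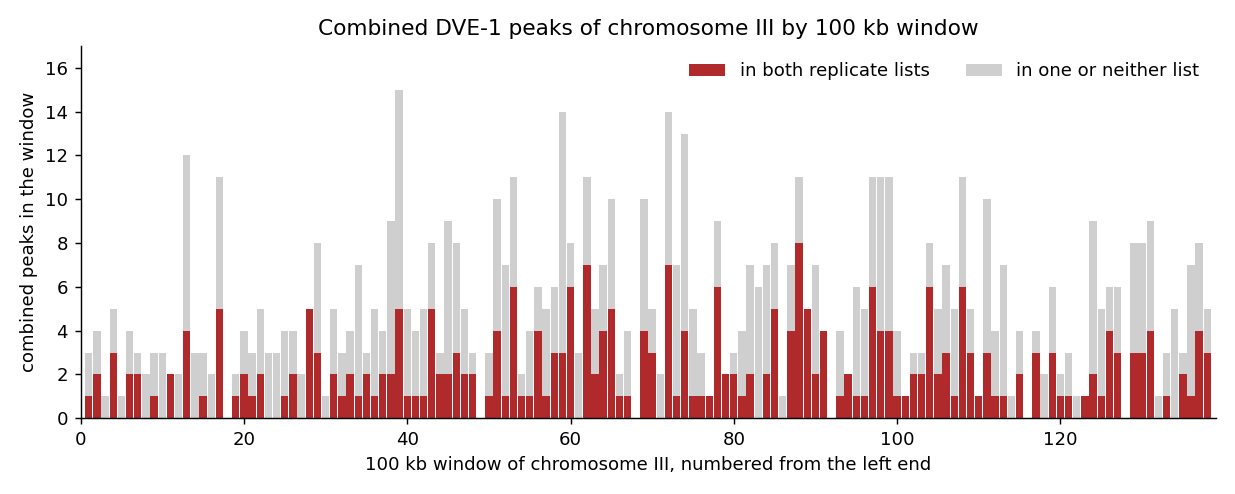
Combined peaks in each 100 kb window of chromosome III, from the left end to the partial last window, with the part held by both replicate lists in red and the rest in grey. The tallest bar is window 39, with 15 peaks of which 5 are in both lists, and 6 of 137 full windows are empty.

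The comparison with the other chromosomes asked how far the density of chromosome III stood above theirs, and it was chosen with its high density already known, so the tests of density are not independent evidence. Chromosome III had 51.1 combined peaks per Mb, against 38.6 on II, 40.5 on IV, 34.9 on V and 25.6 on X. Its 13 full windows of 1 Mb held 50.9 ± 12.1 peaks (SD over windows), against 38.4 ± 16.3 in 15 windows of II, 40.5 ± 13.9 in 17 of IV, 35.1 ± 16.7 in 20 of V and 25.4 ± 9.23 in 17 of X. The ranges overlapped, from 29 to 73 on III, 13 to 64 on II, 17 to 61 on IV, 15 to 77 on V and 11 to 45 on X. The emptiest window of chromosome III was therefore above the emptiest of each of the others, while the fullest of these windows was on V. The variance of the counts on III was 2.88 times their mean, against 3.35 on X to 7.99 on V. In replicate 1 it was 2.67 times the mean on III, above the 2.32 on IV and the 1.51 on X, so the order of the chromosomes in this ratio depended on the list.

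In a quasi-Poisson model of these windows, which takes its error from the spread between windows, chromosome III had 1.46 times as many peaks per window as II, IV, V and X together (95% interval 1.18 to 1.82; F test p = 0.000710, n = 13 and 69 windows). With the same windows (n = 13 and 69), the list of replicate 1 gave a ratio of 1.71 (1.32 to 2.20; p = 7.74e-05) and that of replicate 2 gave 1.60 (1.25 to 2.05; p = 0.000285). Against single chromosomes in the combined list, with p-values adjusted by Benjamini-Hochberg over the 4 contrasts, the ratio was 2.00 to X (adjusted p = 2.48e-05), 1.45 to V (0.00801) and 1.33 to II (0.0474), with n = 13 windows of III and 15 to 20 of each other chromosome. To chromosome IV it was 1.26, with an interval from 0.978 to 1.61 that includes no difference (adjusted p = 0.0739, n = 13 and 17 windows). That contrast passed the threshold in replicate 1 (ratio 1.34, adjusted p = 0.0387) and not in replicate 2 (ratio 1.30, adjusted p = 0.0625, n = 13 and 17). With X left out of the comparison the ratio to II, IV and V was 1.35 (1.09 to 1.67; p = 0.00759, n = 13 windows of III). With chromosomes as the units, 1 against 4 cannot give a permutation p below 0.2.

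Chromosome III stood above the other chromosomes per protein-coding gene as well. Chromosome III had 26.6 combined peaks per 100 protein-coding genes, against 17.1 on II, 21.6 on IV, 14.6 on V and 16.5 on X, with gene numbers from RefSeq for the assembly WBcel235. The ratio to the others together was 1.55 per gene. When the length covered by peaks was compared in place of their number, the ratio was 1.31 per Mb. Gene density along the chromosome and the input were not measured in WS180, and their part in the density was not tested.

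**Figure D3:**
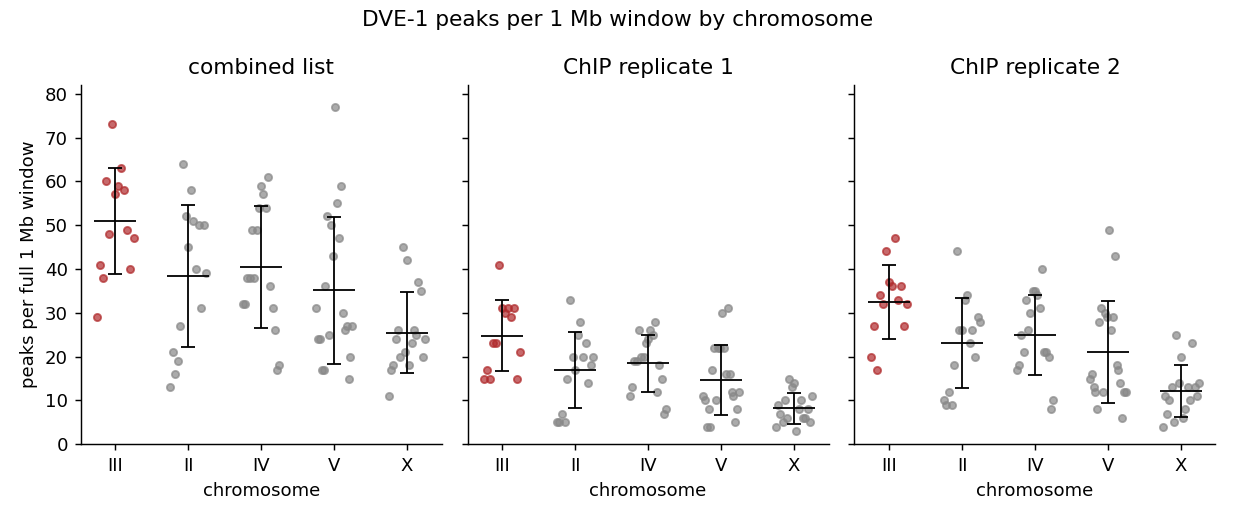
Peaks in each full 1 Mb window (points) of chromosomes III (red), II, IV, V and X (grey) in the combined list and the 2 ChIP replicate lists, with the mean as a long dash and 1 SD over windows as error bars. The mean of chromosome III in the combined list is 50.9 peaks per window, against 25.4 to 40.5 on the others, and the points overlap.

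The excess of centre over ends on chromosome III was not detectably different from that on II, IV, V and X pooled. In a quasi-Poisson model of 100 kb windows the ratio of centre to ends was 1.37 on III and 1.66 on II, IV, V and X together, and the ratio of these ratios was 0.828 (0.652 to 1.05; p = 0.120 for the interaction, n = 137 and 711 windows). In the replicate lists it was 0.907 (p = 0.544) and 0.800 (p = 0.121), again with n = 137 and 711. The others were not alike: on X the centre had 27.6 peaks per Mb, the left end 18.6 and the right end 28.6. The centre held 57.9% of the combined peaks on III, against 61.5% on II, 63.0% on IV, 66.2% on V and 53.9% on X. The excess on III was thus smaller than on II, IV and V, and larger than on X. The share on III had the same place in both replicate lists. The interaction was not tested without X or against single chromosomes. The outermost Mb at the right end of III held 57 combined peaks, against 40 on II, 30 on IV, 28 on V and 28 on X. The outermost Mb at its left end held 29, against 13 on II, 32 on IV, 31 on V and 11 on X. The right tip of III was thus fuller than the other 4 right tips, whereas its left tip lay within the range of the other left tips in the combined list. In the replicate lists the left tip was above the other 4 as well, with 15 peaks against 5 on II, 11 on IV, 11 on V and 4 on X in replicate 1, and 20 against 10 on II, 17 on IV, 15 on V and 4 on X in replicate 2. These tips were not tested.

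The strongest combined peak of chromosome III spanned 4147 bp, from 8864430 to 8868576, and its q-value of 2.69e-85 ranked it 23 of 3702. Replicate 1 called it as 1 peak of nearly the same extent, from 8864490 to 8868567 (rank 19 of 1550), and replicate 2 as 2 peaks, the stronger from 8866190 to 8868531 (rank 79 of 2142). The next, from 12612206 to 12616142 (3937 bp, q = 6.96e-75), was split into 2 peaks in each replicate. Both are broad sites that at least 1 library resolved into neighbouring parts.

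The site ranked 3 on the chromosome was narrower than these, though wider than most peaks of the chromosome. It lay from 3866536 to 3867811, was 1276 bp wide (q = 5.09e-74), and was the strongest peak of chromosome III in replicate 1 (954 bp, q = 5.02e-48, rank 12) and in replicate 2 (1101 bp, q = 5.91e-51, rank 19). Each library called it as 1 peak, and it stands in the fullest 100 kb window of the chromosome. The narrowest of the 10 strongest lay from 4281690 to 4282929 (1240 bp, q = 8.56e-62, rank 39 in replicate 1 and 35 in replicate 2).

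The other 6 of the 10 strongest were 1834 to 4355 bp wide. In the centre these were the sites from 5915857 to 5918193 (q = 1.21e-70), from 9050857 to 9054422 (q = 8.75e-65), from 10214221 to 10217357 (q = 8.36e-64) and from 5501349 to 5504930 (q = 2.12e-63). At the left end there was 1, from 831968 to 836322 (q = 2.21e-64), and at the right end another, from 13463674 to 13465507 (q = 6.42e-64), which at 97.8% of the length is near the tip. All 10 were held by both replicates, and 7 of the 10 lay in the centre, 1 at the left end and 2 at the right end. Their median width was 3351.5 bp, against 500 bp over all 703 peaks.

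Strong sites occurred along the whole chromosome. Among the 100 strongest peaks 66 lay in the centre, 21 at the right end and 13 at the left end, which held 18.1% of all 703. Each 1 Mb window had a strongest peak that both replicates held, with q-values from 2.69e-85 in window 9 to 1.32e-30 in window 3. The windows led by the weaker of these were windows 2, 3 and 12, whose leading sites lay from 1924921 to 1925777 (q = 5.08e-38), from 2171446 to 2173349 (q = 1.32e-30) and from 11026541 to 11026941 (q = 1.50e-35). The last of these was 401 bp wide, narrower than the median, and ranked 153 of 3702. Windows 6 and 9, with the highest counts, were led by the sites ranked 39 and 23 in the list.

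Chromosome III held no peak among the 22 strongest of the combined list. It held 1 of the 25 strongest, 6 of the 50 strongest (12.0%), 21 of the 100 strongest, 55 of the 250 strongest (22%), 107 of the 500 strongest (21.4%) and 204 of the 1000 strongest (20.4%), against 19.0% of the whole list. The exact intervals of all these shares, from the 25 strongest on, include 19.0%. They ran from 0.101% to 20.4% for the 25 strongest and from 4.53% to 24.3% for the 50 strongest. In the replicate lists 0 of the 10 strongest peaks of each lay on III, while 20 and 22 of the 100 strongest did, against 21.9% and 21.0% of the whole lists.

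The median width of the combined peaks of chromosome III was 500 bp, with quartiles of 366.5 and 814 bp and a range from 196 to 5010 bp. Medians were 546 bp on II, 518.5 bp on IV, 505.5 bp on V and 672 bp on X. In replicate 2 the median on III was 513 bp, above the 503.5 bp on IV and the 509 bp on V. Over 1 Mb windows the geometric mean width on III was 0.925 times that on II, IV, V and X together (0.861 to 0.993; F test of a weighted linear model, p = 0.0313, n = 13 and 69 windows). Against single chromosomes only the contrast with X was past the test: against X alone the ratio was 0.777 (adjusted p = 2.92e-07), against II, IV and V it was 0.934, 0.978 and 0.966 (adjusted p = 0.171, 0.551 and 0.478), and with X left out it was 0.961 (0.903 to 1.02; p = 0.203, n = 13 windows of III). In the list of replicate 2 the ratio was 0.940 and not past the test (p = 0.142), and in replicate 1 it was 0.861 (p = 0.00135), where III also had narrower peaks than II (0.836, adjusted p = 0.00202) and V (0.864, adjusted p = 0.00645; n = 13 windows of III).

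Broad sites were few. On chromosome III 124 peaks were over 1000 bp wide (17.6%, against 20.9% on II, IV, V and X) and 4 were over 4000 bp (0.569%, exact interval 0.155 to 1.45), where 1.27% of the whole list were that wide. The widest lay from 6163385 to 6168394, 5010 bp wide, but at q = 2.00e-27 it ranked only 255. Replicate 2 called its middle as 1 peak of 3502 bp, and replicate 1 called 2 peaks that overlap it. The other 3 over 4000 bp were the strongest site, the site from 831968 to 836322 and a site from 10817491 to 10821542 (4052 bp, q = 7.40e-37). The remaining 6 of the 10 widest were 3338 to 3937 bp wide, and 3 of them, from 6419270 to 6423179 (3910 bp, q = 1.98e-61), from 5937861 to 5941449 (3589 bp, q = 1.63e-57) and from 5837983 to 5841320 (3338 bp, q = 1.35e-50), were not among the 10 strongest. Of the 10 widest, 5 were also among the 10 strongest. All 10 were held by both replicates, against 40.8% of all 703 peaks, and 7 lay in the centre, which held 57.9%.

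Width and strength went together across the 703 peaks (Spearman rho = 0.501 between width and −log10 q). The rho was 0.542 on II, 0.518 on IV, 0.501 on V and 0.436 on X. These are correlations across peaks of 1 list, which share the same libraries and caller, and are a description. The exceptions ran in both directions. Among the 100 widest peaks 12 were in neither replicate, and the narrowest of the 100 strongest was 355 bp wide. The narrowest peak of the chromosome, from 3857072 to 3857267 (196 bp, q = 4.40e-05), was in neither replicate and lay in the same 100 kb window as the site ranked 3.

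**Figure D4:**
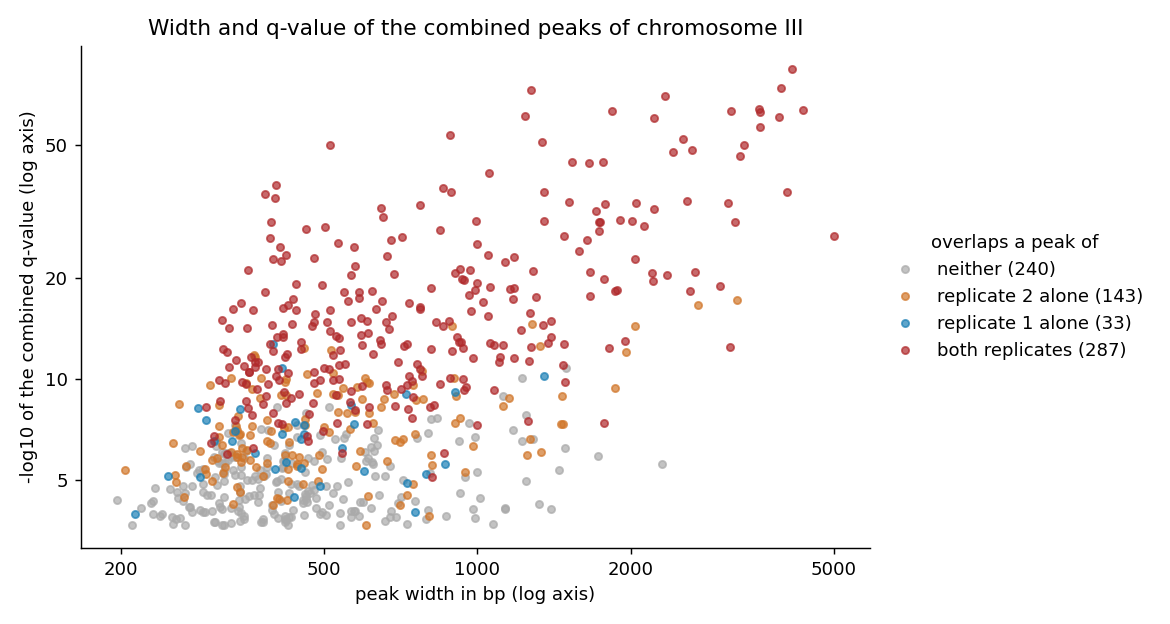
Width against −log10 of the q-value, both on log axes, for the 703 combined peaks of chromosome III, coloured by the replicate lists that hold them (287 in both, 33 in replicate 1 alone, 143 in replicate 2 alone, 240 in neither). The peaks in both lists fill the upper and right parts of the plot, and the widest peak, at 5010 bp, is not the strongest.

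Neighbouring sites of chromosome III lay closer, by the median, than on each of the other 4 chromosomes. Gap length depends on the number of peaks per Mb, which was highest on III, and spacing at equal density was not tested. The median gap, counted in bases between the end of a peak and the start of the next, was 7940 bp (quartiles 1872.25 and 25969 bp), against 10194.5 bp on II, 9349 bp on IV, 12058 bp on V and 19880.5 bp on X. In the replicate lists the median was 19627 bp and 14627 bp on III, against 33639 bp and 21980 bp on II, IV, V and X together. No gap of the combined list on III was shorter than 203 bp, and none in the replicate lists was shorter than 201 bp. In the 3 lists the shortest gaps on each of the other 4 chromosomes were 201 to 263 bp, so on these 5 chromosomes no neighbours were closer than 201 bp.

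Close neighbours were not detectably more common on chromosome III. Of 702 neighbouring pairs 121 were less than 1000 bp apart (17.2%, exact interval 14.5 to 20.2), against 14.5% on II, IV, V and X together and 14.8% in the whole list. In a quasi-binomial model of 1 Mb windows the odds ratio was 1.18 (0.901 to 1.54; p = 0.228, n = 13 and 69 windows). In the replicate lists the shares were 11.5% and 12.9%, where 11.2% and 12.2% of all pairs were that close, and the odds ratios were 0.989 (p = 0.955) and 1.07 (p = 0.686), with n = 13 windows of III. The odds ratio was also below 1 in the stronger 50% of the combined list (0.877) and among peaks in both replicates (0.840). When joined at gaps under 1000 bp, the 703 peaks formed 489 lone peaks, 70 runs of 2, 19 runs of 3, 3 runs of 4 and 1 run of 5. The run of 5 spanned 6438 bp, from 10714081 to 10720518, with 3 of its peaks in both replicates and a lowest q-value of 7.34e-37. A run of 4 from 6415006 to 6423179 ended in one of the widest sites, and another from 3871511 to 3876911 lay in the fullest 100 kb window, with 1 of its 4 peaks in both replicates. The remaining run of 4 lay from 7718224 to 7724124, with 2 peaks in both.

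The longest stretch without a combined peak on chromosome III was 176639 bp, from 9060789 to 9237427. It lies in the centre, in the same 1 Mb window as the site from 9050857 to 9054422. The next were 165501 bp from 9930818 to 10096318, 160275 bp from 11496820 to 11657094, 159032 bp from 624289 to 783320, and 144851 bp from 12688210 to 12833060. None of the 5 held a peak of either replicate. The longest stretches on the other chromosomes were 391827 bp on II, 345271 bp on IV, 311047 bp on V and 281780 bp on X, so chromosome III had no empty stretch of the length that the other 4 had. Gaps of 100 kb or more made up 15 of 702 on III (2.14%), against 6.10% on II, IV, V and X together. In the list of replicate 1 such gaps were 12.7% on III against 22.4% on the others, and in replicate 2 they were 6.25% against 15.1%. These shares also depend on the number of peaks per Mb and were not tested.

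Support in the replicate lists was then counted, with an overlap of at least 1 bp. Of the 703 combined peaks of chromosome III, 287 were held by replicate 1 and replicate 2 alike (40.8%, exact interval 37.2 to 44.6), where 35.0% of all combined peaks were. Replicate 1 alone held 33 (4.69%, with 4.54% in the whole list), replicate 2 alone held 143 (20.3%, with 20.4%) and neither held 240 (34.1%, with 40.1%). The share in both was 38.2% on II, 37.4% on IV, 34.8% on V and 25.7% on X. In a quasi-binomial model of 1 Mb windows the odds of a peak being in both were 1.30 times those on II, IV, V and X together (1.08 to 1.57; p = 0.00728, n = 13 and 69 windows). Against single chromosomes the odds ratio was 1.97 to X (Benjamini-Hochberg adjusted p = 5.62e-06) and 1.31 to V (adjusted p = 0.0284), while those to IV (1.17, 0.942 to 1.44) and II (1.10, 0.884 to 1.38) were not past the test (adjusted p = 0.210 and 0.378; n = 13 windows of III). With X left out it was 1.19 (1.01 to 1.42; p = 0.0425, n = 13 windows of III).

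The difference in share was widest among peaks of middling strength. Of the strongest 25% of the combined list (ranks 1 to 926), 192 peaks lay on III and 95.8% of them were in both replicates, against 95.9% on II, IV, V and X. Of the peaks ranked 927 to 1851, 177 lay on III and 52.5% were in both (exact interval 44.9 to 60.1), against 39.5% (35.6 to 43.5) on the others, with an odds ratio of 1.73 in the window model (1.23 to 2.42; p = 0.00193, n = 13 windows of III). At these ranks the share in both was 42.5% on II, 41.0% on IV, 42.9% on V and 26.0% on X. At ranks 1852 to 2776 5.65% were in both on III, against 4.68% on the others, and from rank 2777 on 0 of 157 were (a share of up to 2.32% by the exact interval), against 3 of 634. The window model was run at ranks 927 to 1851 only, which were chosen after the shares were seen, and the rank groups were not tested against each other. The strongest 25% of the list made up 27.3% of the peaks of III and the weakest 25% made up 22.3%, against 24.6% and 25.6% on the others together. On II these shares were 27.7% and 22.2% and on IV 27.3% and 24.6%, so II and IV were close to III in the strongest 25%.

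**Figure D5:**
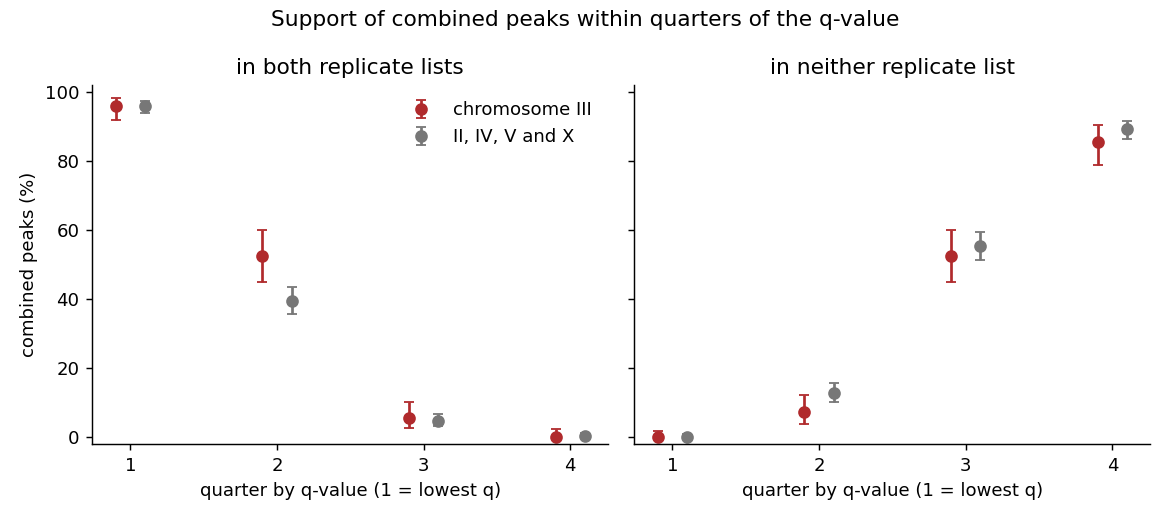
Share of combined peaks held by both replicate lists (left) and by neither (right) in 4 groups of the combined list by rank of q-value, from strongest to weakest, for chromosome III (red) and for II, IV, V and X together (grey), with exact 95% intervals. At ranks 927 to 1851 52.5% of the peaks of chromosome III are in both lists, against 39.5% on the others, and the 2 points lie close together in the strongest group.

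Peaks in both replicates had a larger median width and a lower median q-value than those in neither. On chromosome III their median width was 699 bp and their median q-value 3.13e-15, against 415.5 bp and 1.79e-05 for the peaks in neither. The combined and replicate lists rest on the same ChIP libraries, and a wide peak has more room for an overlap. Support is therefore not independent of width or strength wherever it is set against them here, and these differences are a description. The share in both was highest in window 11, at 55.1% (27 of 49), and lowest in window 4, at 31.7% (19 of 60). Window 6, with the most peaks, had 41.1%. The window with the most peaks was thus not the one with the highest share, but each share rests on few peaks and windows were not tested against each other.

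Between the replicates themselves, 304 of the 340 peaks of replicate 1 on chromosome III overlapped a peak of replicate 2 (89.4%, exact interval 85.6 to 92.5), where 88.9% of all replicate 1 peaks did. In the other direction 300 of 449 did (66.8%, interval 62.2 to 71.2), where 62.9% of all replicate 2 peaks did. The odds ratios to II, IV, V and X together were 1.07 (0.701 to 1.63; p = 0.754) and 1.25 (0.976 to 1.61; p = 0.0756) in the window model (n = 13 and 69 windows), and neither was past the test. For 282 peaks of chromosome III paired 1 to 1, the median shift between the lists was 42 bp at the start and 46 bp at the end, and 74.8% of starts were at most 100 bp apart. The rank correlation over these pairs was 0.808 for width and 0.690 for q-value, against 0.832 and 0.725 over 832 pairs on the others. Combined peaks that covered more than 1 replicate peak were rare, 20 for replicate 1 and 19 for replicate 2, and none covered more than 2.

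Replicate 1 had 36 peaks on the chromosome with no overlap in replicate 2. The 3 strongest lay from 3474966 to 3475786 (821 bp, q = 2.37e-07, rank 742 of 1550), from 10844762 to 10845072 (q = 5.55e-07) and from 7207892 to 7208213 (q = 2.56e-06). In replicate 2 there were 149 such peaks, of which the 3 strongest lay from 12849102 to 12849945 (844 bp, q = 7.75e-12, rank 419 of 2142), from 6857299 to 6857865 (q = 2.28e-10) and from 4795966 to 4796415 (q = 3.19e-10). All 6 were in the combined list. There 3 of them were within the strongest 25%, at rank 863 for the site at 7207892, rank 718 for that at 12849102 and rank 901 for that at 4795966. Absence from a list means only that no peak was called, and DVE-1 may still have been bound.

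Combined peaks in neither replicate were weak on the whole, with a few exceptions. The strongest lay from 6816065 to 6817553 (1489 bp, q = 1.79e-11, rank 1103 of 3702), from 4561329 to 4562549 (1221 bp, q = 9.39e-11) and from 9853071 to 9854193 (1123 bp, q = 1.23e-09). All 3 were wider than 1000 bp, and the first began right after a stretch of 122512 bp with no combined peak. In turn, 339 of 340 replicate 1 peaks and 447 of 449 replicate 2 peaks of the chromosome were in the combined list. The 3 that were not lay from 10357617 to 10358006 (replicate 1, q = 4.42e-05), from 3519509 to 3519940 (replicate 2, q = 3.67e-05) and from 11920228 to 11920804 (replicate 2, q = 0.000132).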

How the data were processed

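The authors called peaks with PeakSeq and gave each a q-value, on WormBase WS180, per the columns and headers of the lists. How the combined list was made, with which aligner and which thresholds, is not given in the sources used here. Separate cultures for the replicates are not stated in the labels, so p-values measure only the spread within these lists, which may be technical. Intervals and tests over peaks or windows cover these lists only, and neighbouring windows are not independent.

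All peaks were read as deposited, with 1-based ends included. Peaks were assigned to windows by midpoint, and chromosome length was the highest peak end in any list. Density, shares and mean log10 width were modelled over full 1 Mb windows with Python 3.11.15 and statsmodels 0.14.6, with the error scaled by the spread between windows, and these steps were tested on simulated data. The simulated windows were drawn independently and without a trend along the chromosome, so that check does not cover dependence between neighbouring windows. Exact Clopper-Pearson intervals and binomial tests used scipy 1.17.1, and figures matplotlib 3.10.9. Chromosome I is part of the shares given for the whole list and of no comparison. Gene numbers per chromosome are in another build, WBcel235, so no position was matched to genes. The chromosome, site lists and tests were chosen with earlier results of these data known. Sites named are the 10 strongest, the 10 widest, the strongest per 1 Mb window, the 3 strongest in neither replicate or in only 1 of the replicates, the 5 longest gaps, the 5 fullest 100 kb windows and the longest run; others named (the ends, the narrowest, other runs, a window of 11 peaks, peaks outside the combined list) were chosen after their values were seen. Alternatives were each replicate list alone, 2 other overlap rules, the stronger 50% of a list and no peaks over 4000 bp. Further alternatives were peaks in both replicates, other denominators, 33.3% of the length as each end and joining peaks under 200 bp apart. The comparison without X, the peaks ranked 927 to 1851 and the interaction model were added after the data were seen.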

Additional observations from a re-analysis of the deposited data

How the results depend on the processing

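Of 72 alternative values, 48 kept their direction and side of the threshold or stayed within the interval of the main value. The share of combined peaks of chromosome III in both replicates, 40.8%, was 32.9% with a reciprocal overlap of 50% and likewise 32.9% with midpoints at most 250 bp apart, 75.1% in the stronger 50% of the list, and 45.5% to 61.2% when the list of 1 replicate alone gave the support. Of replicate 1 peaks, the share with a partner in replicate 2 was 77.6%, 76.8% and 99.4% under the first 3 of these rules, and the reverse share 58.8%, 58.1% and 88.7%. A reciprocal overlap of 50% can only lower these shares, by construction. The midpoint rule does not require an overlap, so the lower shares under it were not fixed in advance. The width ratio, 0.925, was not past the test in the stronger 50% of the list (0.918), without peaks over 4000 bp (0.941) or without X (0.961), and was 0.861 to 0.940 in the replicate lists; the cause was not tested. The density ratio to IV, 1.26, was 1.30 to 1.34 in the replicate lists and past the threshold in replicate 1. The ratio of left to right end was 0.887 with ends of 33.3%. The median gap, 7940 bp, was 14627 to 19627 bp in the replicate lists, 17441.5 bp in the stronger 50% and 25004.5 bp among peaks in both replicates, which all hold fewer peaks. The odds ratio of close neighbours, 1.18 and not past the test, was 0.877 in the stronger 50%, 0.840 among peaks in both replicates and 0.989 to 1.07 in the replicate lists, none past the test. Joining peaks under 200 bp apart changed nothing, as no gap on these 5 chromosomes was that short. No paired analysis was possible because the replicate numbers recur only in the input libraries, which were not analysed here. Without known depth, a site that a list lacks may lie under its detection limit.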
